A study of Ovis aries with 6 samples.

Results

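The centrosomal protein genes were examined in the skin of fine wool and coarse wool sheep. A gene was taken when its symbol in the files was CEP followed by a number, with or without a final L, or was one of 14 named centrosome genes such as PCNT, PCM1, NIN, PLK4 and OFD1. In all, 45 of the 28394 listed genes met this rule, 33 of them by the CEP symbol. TUBG1 and NINL were not listed under these symbols. All 45 genes had enough reads to be tested, among 15320 tested genes, and 45 carried the same symbol for their gene identifier in the RefSeq gene table of a later sheep assembly.

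The groups were 3 Super Merino (SM) and 3 Small Tail Han (STH) ewes, each sequenced as 1 library of polyA RNA from skin behind the shoulder blade. The sample labels give an age of 9 months for all 6 sheep, whereas the methods of the study give a younger age. The ewes were kept on 1 farm and fed alike, and the skin was taken in autumn, when wool follicles grow. The SM ewes are numbered 128, 30034 and 30126 and the STH ewes XW3, XW5 and XW8, and values below keep this order. Each sheep is 1 animal, and whole skin is a mixture of cell types, so that fewer cells of a type and less RNA per cell cannot be told apart in these values.

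The centrosome is the main microtubule organizing centre of animal cells. It holds a pair of centrioles within a cloud of pericentriolar material that anchors the gamma-tubulin complexes from which microtubules grow. Each centriole is copied once per cell cycle by a pathway that starts with the kinase PLK4, and the older centriole carries appendages with which it docks at the cell membrane and forms the base of the primary cilium. Satellites are protein granules that gather around the centrosome and supply it. In skin, dividing cells of the basal epidermis and of the follicle bulb need centrosomes for the spindle, and the primary cilium is required for hedgehog signalling in the follicle. No sequence is shown because none was given for these genes.

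Total counts ranged from 28870583 to 44645091 per library, at which 3 counts of a gene correspond to 0.0672 to 0.104 counts scaled to a library of 1e6 (CPM). Such a floor covers counting error only. The lowest count of any centrosomal gene in any sheep was 78, for CEP126, so that depth did not limit their detection. Keratinocyte markers were abundant in every library. Of 8 such markers 7 were found, with a summed level of 12536 to 14020.1 CPM in SM and 14389 to 20639.7 CPM in STH sheep. All 7 were below 0 on the log2 scale of SM over STH, 3 with an unadjusted p under 0.05. Of the wool follicle markers 6 of 9 were found, with 11268 to 16192 CPM in SM and 13454 to 17885 CPM in STH sheep. The smooth muscle markers were lower in SM sheep, at 1039 to 1249 against 1653 to 2111 CPM in sum, with all 5 markers below 0 on the log2 scale and 4 with an unadjusted p under 0.05. The summed adipocyte markers were at 30.9 to 66.7 against 140.4 to 177 CPM, with 3 of 4 below 0 and 2 with an unadjusted p under 0.05. The sebocyte markers were higher in SM sheep, at 950.4 to 1805 against 510.003 to 710.4 CPM, with all 5 above 0 and an unadjusted p under 0.05. The 3 endothelial markers were above 0 as well, 2 with an unadjusted p under 0.05, with sums of 428 to 558 in SM and 259 to 434 CPM in STH sheep. Dermal fibroblast markers summed to 14610 to 20936 CPM in SM and 16993 to 20971 CPM in STH sheep, and 5 of 6 were below 0. Of all tested genes 48.6% were below 0, and 10.8% were lower and 7.21% higher in SM sheep with an unadjusted p under 0.05. No marker of any of these lists passed the test of breed described below. The part of these differences in cell makeup in the results below was not tested.

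Most centrosomal genes were read less in SM than in STH skin, but no gene of the 45 passed the test of breed. The log2 ratio of the level in SM to that in STH sheep (log2 SM/STH ratio, given with its standard error, SE) was below 0 for 37 of the 45 genes, against 48.6% of all tested genes. The median was -0.46, from -1.24 for CEP83 to 0.23 for CEP85, and the median of all tested genes was 0.02. A gene passed when its adjusted p in edgeR's quasi-likelihood test was under 0.05 and its change over 1.5-fold, and 0.0% of all tested genes passed in either direction. The lowest adjusted p among the 45 genes was 0.209. Of the 45, 16 genes were lower in SM sheep and 0 higher with an unadjusted p under 0.05, where the shares of all tested genes were 10.8% and 7.21%. The breeds were apart, with every STH value over every SM value, in 14 genes, against 13.3% of all tested genes, and the reverse held for 0 genes, against 12.3%. An exact two-sided permutation test of 1 gene has a smallest p of 0.1 at 3 sheep per breed.

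The call depended on the test and on 1 sheep. CEP83 and CEP162, 2 of the 45 genes, passed in the likelihood ratio test of edgeR, where 1.43% of all tested genes passed as lower in SM sheep. By DESeq2 6 passed, CEP83, CEP85L, CEP120, CEP162, NIN and SASS6, against 1.85% of all tested genes. Without SM sheep 128 the quasi-likelihood test passed 16 of the 45 genes, all of them lower in SM sheep, against 6.39% of the 15203 genes tested there. The study calls CEP83, CEP120, CEP162, CEP290, CEP350, NIN and SASS6 higher in STH skin in these same libraries, by edgeR at the same thresholds. None of them passed the quasi-likelihood test of all sheep here, and why the calls differ was not tested. Their direction here is no independent evidence. No gene of the 45 passed as higher in SM sheep by the likelihood ratio test, by DESeq2 or without SM sheep 128. Of all tested genes 0.868%, 1.02% and 1.34% did.

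**Figure D1:**
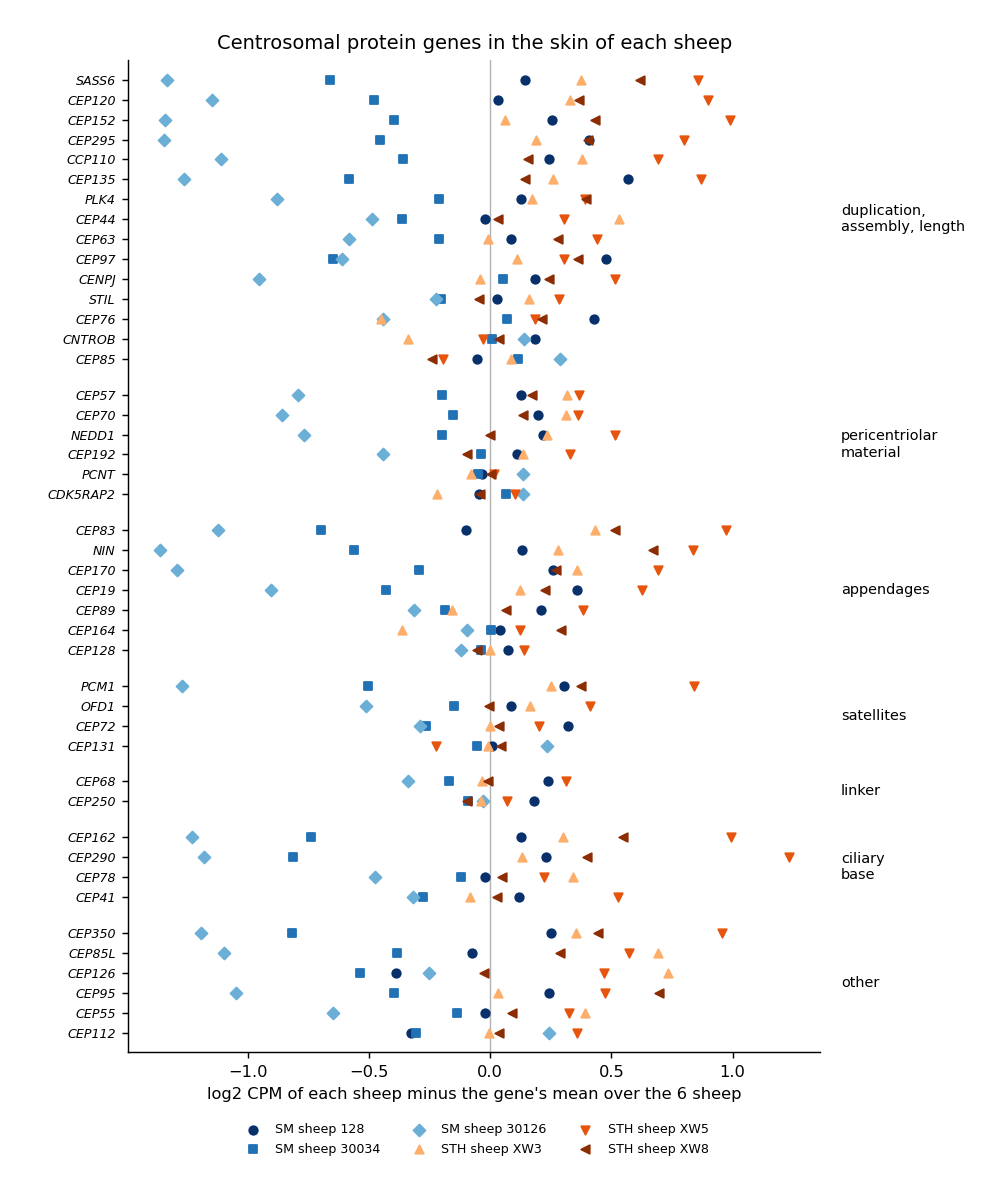
Level of 44 of the 45 centrosomal protein genes in each sheep, as log2 CPM minus the mean of that gene over the 6 sheep, with genes grouped by role and ordered within a role by the breed difference. Blue symbols are SM sheep and orange to brown symbols STH sheep; SM sheep 30126 (light blue diamonds) is the lowest of the 6 sheep in 33 genes, STH sheep XW5 (orange triangles) the highest in 27, and SM sheep 128 (dark blue circles) lies among the STH sheep in many genes.

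The genes of centriole duplication, assembly and length formed the largest group. Of these 15 genes 12 had a log2 SM/STH ratio below 0, with a median of -0.58, and 6 had an unadjusted p under 0.05, all lower in SM sheep, beside the 10.8% of all tested genes. SASS6 encodes the protein of the cartwheel, the scaffold that sets the symmetry of a new centriole. It had 17.6 (128), 10.1 (30034) and 6.32 CPM (30126) in SM sheep against 20.6 (XW3), 28.9 (XW5) and 24.4 CPM (XW8) in STH sheep. No SM sheep reached the lowest STH sheep, and the spread within SM sheep, 2.79-fold from 30126 to 128, was wider than the difference between breeds, a log2 SM/STH ratio of -1.12 (SE 0.34, adjusted p = 0.247).

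CEP120, which promotes the elongation of the new centriole, had 30.5, 21.4 and 13.5 CPM in SM and 37.5, 55.6 and 38.5 CPM in STH sheep. The breeds did not overlap, and the log2 SM/STH ratio was -1.01 (SE 0.29, adjusted p = 0.247). PLK4, the kinase at the head of the pathway, had 20.6, 16.3 and 10.3 CPM in SM and 21.3, 24.8 and 24.9 CPM in STH sheep. Its breeds were separated only by the step from 20.6 to 21.3 CPM, and its log2 SM/STH ratio was -0.59 (SE 0.24, adjusted p = 0.267).

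CEP152, which recruits PLK4 to the parent centriole, had 12.2, 7.75 and 4.03 CPM in SM and 10.7, 20.3 and 13.8 CPM in STH sheep. SM sheep 128 lay above STH sheep XW3, and the log2 SM/STH ratio was -0.90 (SE 0.39, adjusted p = 0.276). CCP110, the cap that holds back growth of the centriole's far end, had 34.2, 22.5 and 13.4 CPM in SM and 37.6, 46.7 and 32.2 CPM in STH sheep, again with SM sheep 128 among the STH sheep. Its log2 SM/STH ratio was -0.74 (SE 0.31, adjusted p = 0.270). CEP295, needed for the conversion of a centriole to a centrosome, had the highest level per exon length of the 45 genes, at a mean of 9.78 RPKM over the 6 sheep. CEP135, a cartwheel-binding protein, had the widest range within SM sheep, 3.56-fold from 30126 to 128.

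STIL and CENPJ, which act with PLK4 and SASS6 in assembly and take part in setting centriole length, differed less. STIL had 9.62, 8.19 and 8.08 CPM in SM and 10.5, 11.5 and 9.13 CPM in STH sheep, a log2 SM/STH ratio of -0.27 (SE 0.19, adjusted p = 0.426). CENPJ had 16.7, 15.3 and 7.59 CPM in SM and 14.3, 21.0 and 17.4 CPM in STH sheep, a log2 SM/STH ratio of -0.42 (SE 0.30, adjusted p = 0.432). The breeds overlapped for both genes, and in CENPJ only SM sheep 30126 stood below the other 5 sheep. CEP85 and CNTROB lay on the other side of 0. CEP85 had 11.5, 12.95 and 14.6 CPM in SM and 12.7, 10.4 and 10.1 CPM in STH sheep, a log2 SM/STH ratio of 0.23 (SE 0.18, adjusted p = 0.474). CNTROB, which encodes centrobin, a protein of the daughter centriole, had 26.2, 23.2 and 25.4 CPM in SM and 18.2, 22.6 and 23.7 CPM in STH sheep, a log2 SM/STH ratio of 0.21 (SE 0.16, adjusted p = 0.452). Both overlapped between breeds.

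The pericentriolar material was nearer to 0. Over its 6 genes the median log2 SM/STH ratio was -0.35, and 1 of them, CEP57, had an unadjusted p under 0.05 as lower, a share near the 10.8% of all tested genes. PCNT encodes pericentrin, the large scaffold of the pericentriolar material. It had 63.6, 63.0 and 71.6 CPM in SM and 61.7, 65.9 and 65.4 CPM in STH sheep. These 6 values were the most even of the group, and the log2 SM/STH ratio was 0.04 (SE 0.13, adjusted p = 0.874). It was -0.01 without SM sheep 30126. CDK5RAP2, which binds the gamma-tubulin complex, had 34.8, 37.7 and 39.5 CPM in SM and 30.9, 38.6 and 35.0 CPM in STH sheep, a log2 SM/STH ratio of 0.10 (SE 0.15, adjusted p = 0.704). For PCNT and CDK5RAP2 the highest SM value was that of sheep 30126, the sheep with the lowest value in most of the other genes. CEP57 had 31.2, 24.9 and 16.5 CPM in SM and 35.5, 36.8 and 32.1 CPM in STH sheep, a log2 SM/STH ratio of -0.53 (SE 0.23, adjusted p = 0.272), and its breeds did not overlap. The gamma-tubulin gene TUBG1 and NINL were found by gene identifier as LOC101103906 and LOC101106868. They are not counted among the 45 genes, while TUBG1 was read at 28.5, 35.6 and 45.7 CPM in SM and 33.4, 25.1 and 33.3 CPM in STH sheep. The log2 SM/STH ratios of TUBG1 and NINL were 0.26 (SE 0.21, adjusted p = 0.474) and 0.25 (SE 0.21, adjusted p = 0.492).

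Of the 7 genes of the appendages of the mother centriole, all had a log2 SM/STH ratio below 0, with a median of -0.57 and a range from -1.24 to -0.06. CEP83, a distal appendage protein needed for docking at the membrane, had 10.3, 6.84 and 5.10 CPM in SM and 14.9, 21.7 and 15.9 CPM in STH sheep. The lowest STH value, in XW3, was well above the highest SM value, in sheep 128. The means were 7.43 ± 2.67 (SD, n = 3) and 17.5 ± 3.69 CPM (SD, n = 3), and the log2 SM/STH ratio of -1.24 (SE 0.28, adjusted p = 0.209) was the lowest of the 45 genes. NIN encodes ninein, a subdistal appendage protein that anchors microtubules. It had 70.7, 43.7 and 25.1 CPM in SM and 78.3, 115 and 103 CPM in STH sheep, a log2 SM/STH ratio of -1.09 (SE 0.33, adjusted p = 0.247), and the breeds did not overlap. CEP128 and CEP164 of the same structures had log2 SM/STH ratios of -0.06 (SE 0.17) and -0.06 (SE 0.18), the breeds overlapped in both, and both signs turned under alternatives such as the removal of the exon length trend.

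Of the 4 satellite genes 3 were below 0, with a median of -0.25. PCM1, the scaffold of the satellites, ranked behind CEP295 alone in level per exon length, with 6.95 ± 3.52 RPKM (SD, n = 3) in SM and 12.3 ± 2.58 RPKM (SD, n = 3) in STH sheep. It had 139.8, 80.0 and 47.0 CPM in SM and 135, 203 and 147 CPM in STH sheep, so that SM sheep 128 lay above STH sheep XW3. Its log2 SM/STH ratio was -0.86 (SE 0.35, adjusted p = 0.265). OFD1, a satellite and centriole protein whose gene is on the X chromosome, had 24.9, 21.1 and 16.4 CPM in SM and 26.2, 31.1 and 23.4 CPM in STH sheep, a log2 SM/STH ratio of -0.37 (SE 0.20, adjusted p = 0.323). CEP131 had 15.1, 14.5 and 17.7 CPM in SM and 14.9, 12.9 and 15.5 CPM in STH sheep, a log2 SM/STH ratio of 0.13 (SE 0.17, adjusted p = 0.672). The breeds overlapped in all 4 satellite genes.

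The linker, which ties the 2 centrioles to each other between divisions, was represented by CEP250 and CEP68. CEP250, which encodes a protein of the linker, had 25.1, 20.8 and 21.7 CPM in SM and 21.6, 23.2 and 20.7 CPM in STH sheep, a log2 SM/STH ratio of 0.04 (SE 0.15, adjusted p = 0.878). This sign was opposite, at -0.04, without SM sheep 128. CEP68 had 25.9, 19.5 and 17.4 CPM in SM and 21.5, 27.3 and 21.9 CPM in STH sheep, a log2 SM/STH ratio of -0.17 (SE 0.20, adjusted p = 0.619). The breeds overlapped in both.

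Of the genes of the ciliary base, CEP290, a protein of the transition zone that gates entry to the cilium, had 51.4, 25.0 and 19.3 CPM in SM and 48.0, 103 and 57.9 CPM in STH sheep. SM sheep 128 lay above STH sheep XW3, and STH sheep XW5 stood far above the other 5 sheep. The log2 SM/STH ratio was -1.13 (SE 0.40, adjusted p = 0.252). CEP162, which tethers the transition zone to the axoneme, had 34.9, 19.2 and 13.6 CPM in SM and 39.4, 63.7 and 46.8 CPM in STH sheep, without overlap, a log2 SM/STH ratio of -1.15 (SE 0.33, adjusted p = 0.247).

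Among the remaining 6 genes, all of which had a log2 SM/STH ratio below 0, CEP350 was the longest in exons of the 45 genes. CEP350, which anchors microtubules at the centrosome, had 109, 51.8 and 39.9 CPM in SM and 117, 177 and 124 CPM in STH sheep, a log2 SM/STH ratio of -1.06 (SE 0.35, adjusted p = 0.247). The breeds did not overlap, with SM sheep 128 close under STH sheep XW3. CEP55, a protein of the midbody that acts in the last step of cell division, had 6.21, 5.73 and 4.03 CPM in SM and 8.27, 7.91 and 6.72 CPM in STH sheep, a log2 SM/STH ratio of -0.52 (SE 0.24, adjusted p = 0.285), also without overlap. CEP85L had 8.43, 6.80 and 4.15 CPM in SM and 14.4, 13.2 and 10.9 CPM in STH sheep, without overlap, and its log2 SM/STH ratio was -0.99 (SE 0.27, adjusted p = 0.240). The gene PLN lies within CEP85L on the opposite strand, on chromosome 8 of Oar_v4.0 from 19451607 to 19465519. PLN encodes phospholamban, a regulator of the muscle calcium pump, and its log2 SM/STH ratio was -3.35 (SE 0.59). Whether the counting used strand is not given in the sources used here, and reads of PLN in the count of CEP85L cannot be told apart from those of CEP85L. In all, 13 of the 45 genes overlap another listed gene, and for 6 of them that gene was read often enough to be tested.

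**Figure D2:**
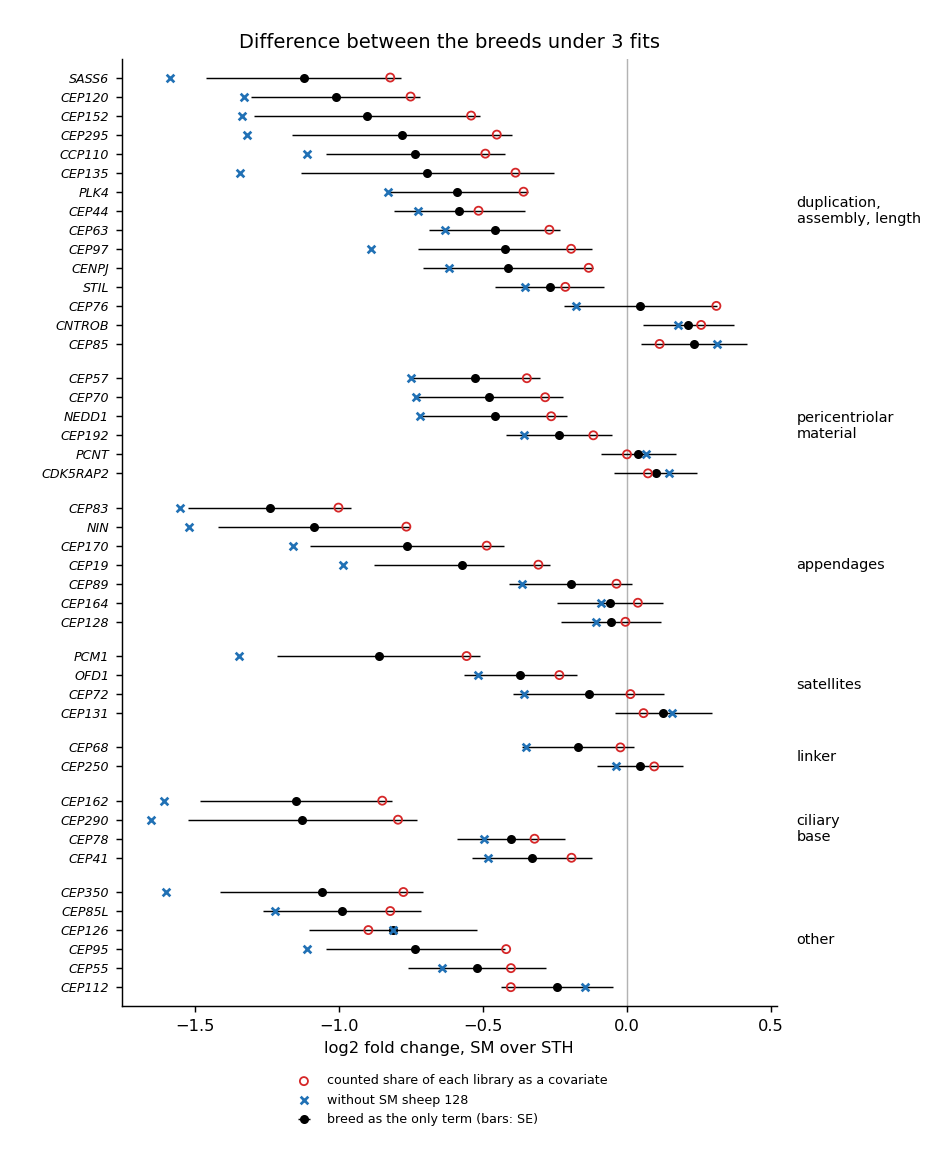
Log2 SM/STH ratio for 44 of the 45 genes (horizontal axis) under 3 fits of edgeR's quasi-likelihood test, with black points and bars for the estimate and its standard error with breed as the only term. Red circles are from the fit with the counted share of each library as a covariate and lie closer to 0 for most genes, and blue crosses are from the fit without SM sheep 128, where the median of the 45 genes is -0.72.

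The sheep of a breed differed among themselves in the same genes. SM sheep 128 was the highest of the 3 SM sheep in 38 of the 45 genes and sheep 30126 the lowest in 35, whereas over all tested genes they were so in 36.6% and 40.2%. The level in SM sheep 128 was 1.83-fold that in SM sheep 30126 in the median of the 45 genes, against 0.989-fold over all tested genes. In STH sheep, XW5 was the highest of the 3 in 31 of the 45 genes, against 35.3% of all tested genes, and its level was 1.25-fold that of XW3 in the median. Summed over the 45 genes, SM sheep 128 had 1444 CPM, SM sheep 30034 1033 and SM sheep 30126 847, and the STH sheep had 1418 (XW3), 1916 (XW5) and 1531 (XW8). SM sheep 128 therefore lay above STH sheep XW3 in the sum, and it lay above the lowest STH sheep in 30 of the 45 genes. SM sheep 30034 and 30126 both lay below all 3 STH sheep in 32 genes. The share of all tested genes is not given for this count, and breeds come apart more easily once a sheep is set aside.

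Across the 45 genes, the log2 ratio of SM sheep 128 to 30126 had a Spearman rho of 0.62 with the log2 ratio of STH sheep XW5 to XW3, and 0.42 over 15168 tested genes with a count in all 4 of these sheep. No sheep is shared between the ratios, but each of the genes was read from the same 4 libraries, and genes are not independent replicates. CEP290 and CEP152 were high in both ratios, and CEP85, CEP131 and CEP126 were below 0 in both. CEP112 was the gene with the lowest ratio of SM sheep 128 to 30126, at -0.57 on the log2 scale.

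**Figure D3:**
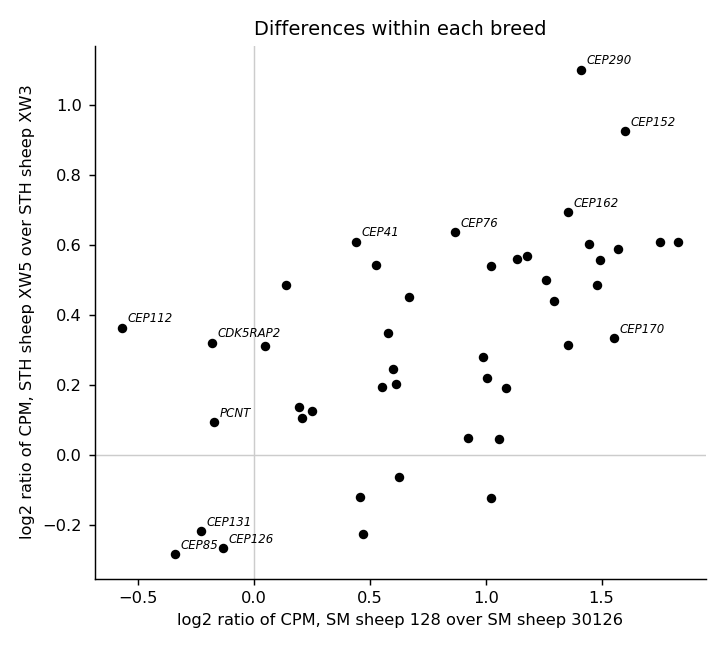
Log2 ratio of CPM between a pair of SM sheep (128 over 30126, horizontal axis) and between a pair of STH sheep (XW5 over XW3, vertical axis) for 44 of the 45 centrosomal protein genes, 1 point a gene. Both ratios are above 0 for most genes, with CEP290 at the top and CEP85, CEP131 and CEP126 at the lower left.

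The order of the sheep was set beside the share of each library that was counted. The deposited RPKM values of a gene are its count divided by its exon length and by the number of fragments of the library, so that this number could be recovered from the files. The total counts made up 65.5%, 70.97% and 77.3% of these fragments in SM sheep 128, 30034 and 30126. In XW3, XW5 and XW8 they made up 70.1%, 66.9% and 66.6%. The intronic share in the mapping statistics of the study is highest in SM sheep 128, followed by STH sheep XW5, XW8 and XW3, and lowest in SM sheep 30034 and 30126. In the median over the 45 genes, log2 CPM lay 0.13 above the mean of the 6 sheep in SM sheep 128, and differed from it by -0.21 in 30034 and -0.61 in 30126. In the STH sheep it lay above the mean by 0.13 (XW3), 0.39 (XW5) and 0.14 (XW8). The same medians over all tested genes were between 0.01 and 0.02. Within SM sheep the level of the centrosomal genes was thus lowest where the counted share was highest. The same medians of the 6 dermal fibroblast markers were 0.21, -0.24 and -0.25 in SM and 0.04, 0.33 and -0.02 in STH sheep. They too were highest in 128 and XW5 within their breeds. In SM sheep the medians of the wool follicle markers were -0.28, -0.04 and 0.30, and of the sebocyte markers 0.31, 0.27 and 1.10. Those 2 lists were thus highest in 30126. The part of any of these lists in the result was not tested.

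**Figure D4:**
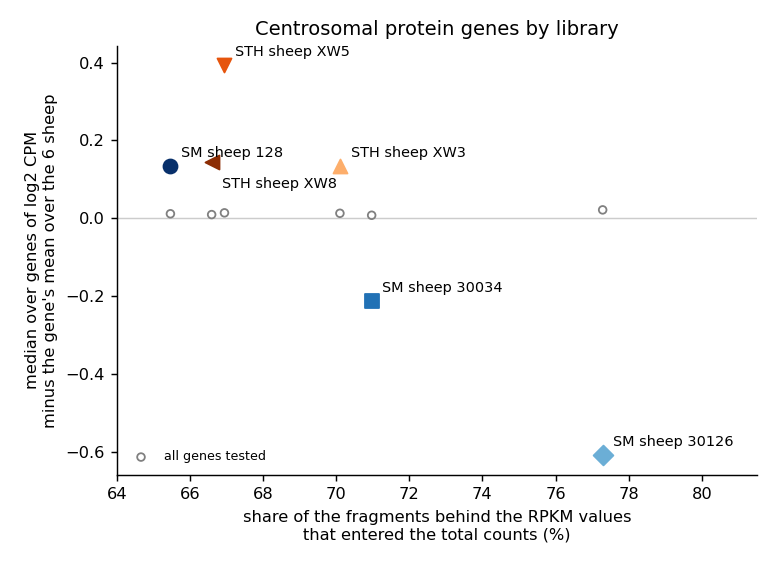
Median over the 45 centrosomal protein genes of log2 CPM minus the mean of each gene over the 6 sheep (vertical axis), against the share of the fragments behind the RPKM values that entered the total counts (horizontal axis, %), 1 filled symbol a sheep. SM sheep 30126, with 77.3% counted, is lowest at -0.61, and open grey circles show that the same median over all tested genes stays near 0.

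With the intronic share as a covariate in the quasi-likelihood test, the median log2 SM/STH ratio of the 45 genes was -0.28 in place of -0.46. It was -0.31 with the counted share. The intronic and the counted share run almost opposite to each other over the libraries, so that these fits are not separate checks. In both fits 40 of the 45 genes lay closer to 0 than with breed alone, and 36 were still below 0, against 50.9% of all tested genes with the intronic and 50.8% with the counted share. No gene passed. With the intronic share 16 genes were lower in SM sheep with an unadjusted p under 0.05, 14 of them the same as before, and 10.1% of all tested genes. NIN had a log2 SM/STH ratio of -0.73 with the intronic share, CEP83 -0.98, PCM1 -0.52 and PLK4 -0.34. CEP126 and CEP112, both lower in SM sheep 128 than in 30126, went the other way, from -0.81 to -0.91 and from -0.24 to -0.41. SM sheep hold both the highest and the lowest share, so that the fit could estimate a term for each of breed and share. It did so from 6 libraries, of which SM sheep 30126 had 77.3% counted and the others 65.5% to 70.97%. Whether the remaining ratios are free of library share was not tested.

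Centrosomal proteins are large, and their genes are long. The exon length had a median of 5838 bases over the 45 genes against 3069 over all tested genes, and the gene span a median of 54.3 kb against 22.7 kb. Across all tested genes the log2 SM/STH ratio decreased with length. Its median was 0.22 for 2218 genes of up to 5 kb in span and -0.18 for 1308 genes of 100 to 200 kb. For exon length, it was 0.24 for 1189 genes of up to 1000 bases and -0.25 for 1204 genes of over 9000 bases. Most centrosomal genes lay below these medians. In 35 of the 45 genes the log2 SM/STH ratio was below the median of all tested genes in the same class of span, and in 35 it was below that of the class of exon length. The 18 centrosomal genes of 20 to 50 kb had a median of -0.42 against -0.05, the 13 of 50 to 100 kb -0.48 against -0.14, and the 8 of 100 to 200 kb -0.95 against -0.18. The medians of the 3 of 10 to 20 kb, 0.13 against 0.09, and of the 2 of over 200 kb, -0.15 against -0.18, lay on the other side. In each of these 2 classes 1 gene was still below the class median. CEP19 was the single gene of 5 to 10 kb, at -0.57 against 0.14.

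Among the 45 genes themselves the changes followed span about as much as over all tested genes, and exon length less. The Spearman rho of the log2 SM/STH ratio with span was -0.29 and with exon length -0.07, against -0.28 and -0.30 over all tested genes. Some genes of like length lay far apart. NIN and PCNT span 103 and 106 kb with 10881 and 10436 exon bases, and their log2 SM/STH ratios were -1.09 and 0.04. CEP250 has 11522 exon bases and CEP290 9345, with log2 SM/STH ratios of 0.04 and -1.13. CEP128 has the longest span, 457 kb, and a log2 SM/STH ratio of -0.06, and CEP19 has the shortest, 7.10 kb, and -0.57 (SE 0.31, adjusted p = 0.324). When the trend of each sheep on exon length was removed, the median of the 45 genes was -0.39 beside 0.08 over all tested genes, 32 genes were below 0, against 43.0% of all tested genes, and 15 had an unadjusted p under 0.05 as lower in SM sheep, with 9.32% of all tested genes. CEP250 was then 1 of 2 genes with an unadjusted p under 0.05 as higher in SM sheep, with 10.4% of all tested genes.

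**Figure D5:**
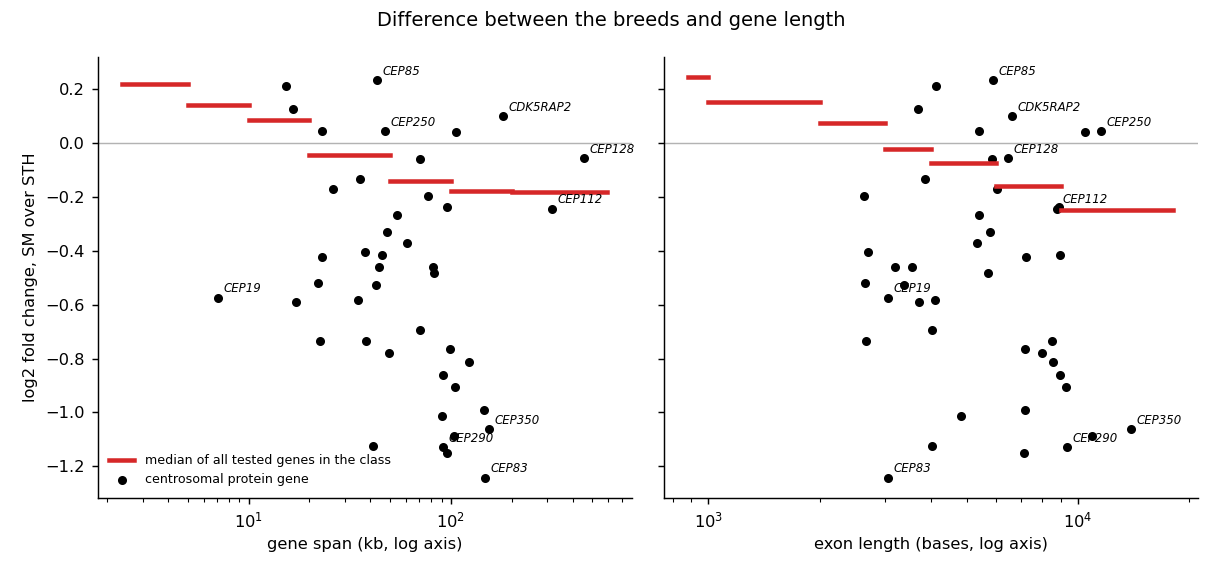
Log2 SM/STH ratio (vertical axis) for 44 of the 45 centrosomal protein genes (black points) against gene span in kb (left) and exon length in bases (right), both on log axes, with red lines for the median of all tested genes in each length class; the outermost classes run on beyond the axes. Red lines descend with length, and most points lie below them. CEP19 and CEP83, of short and long span but like exon length, both lie below the lines of their span classes.

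Further genes of the centrosome and cilium that the rule does not name were taken from a list of 60, of which 56 were found and 55 tested. Of these 40 had a log2 SM/STH ratio below 0, against 48.6% of all tested genes, and the median was -0.26. None passed the quasi-likelihood test, and at an unadjusted p under 0.05 there were 12 lower in SM sheep and 0 higher, against 10.8% and 7.21% of all tested genes. Within the list the 14 genes of the gamma-tubulin ring and of augmin had a median of -0.13, and the 7 genes of the linker and of mitotic kinases 0.15. The 6 scaffold genes AKAP9, PIBF1, LRRCC1, ODF2L, IQCB1 and MPHOSPH9 had a median of -1.20, from -1.38 to -0.92. The study names these 6 as well among the genes higher in STH skin, and their direction is likewise no independent evidence. They make up 6 of the 12 further genes that were lower with an unadjusted p under 0.05. The counts and the median of the whole list include them and are no independent evidence either. POC1B, which stabilizes centrioles, had the lowest p among the further genes, with 26.4, 25.3 and 19.4 CPM in SM and 39.3, 36.1 and 39.0 CPM in STH sheep, a log2 SM/STH ratio of -0.69 (SE 0.16, adjusted p = 0.216). Its paralogue POC1A had the lowest p of those above 0, with 6.41, 9.43 and 12.1 CPM in SM and 7.10, 6.40 and 4.53 CPM in STH sheep, a log2 SM/STH ratio of 0.63 (SE 0.29, adjusted p = 0.283).

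Proliferation genes, which mark cycling cells, were mostly on the other side of 0 from the centrosomal genes. Of 26 such genes, all tested, 9 had a log2 SM/STH ratio below 0, against 48.6% of all tested genes, and 17 above. Their median was 0.09, against 0.02 over all tested genes. The part of gene length in this was not tested. With an unadjusted p under 0.05, 2 were lower and 8 higher in SM sheep, against 10.8% and 7.21% of all tested genes, and none passed. Their summed level was 1474 to 1646 CPM in SM and 1372 to 1647 CPM in STH sheep. CCNB2, which encodes a mitotic cyclin, had 14.7, 16.9 and 17.3 CPM in SM and 12.8, 10.5 and 10.8 CPM in STH sheep, a log2 SM/STH ratio of 0.52 (SE 0.17, adjusted p = 0.247). CENPE, a long kinetochore motor gene, had 23.2, 11.3 and 8.82 CPM in SM and 29.2, 73.1 and 35.2 CPM in STH sheep, a log2 SM/STH ratio of -1.67 (SE 0.44, adjusted p = 0.240). CENPE was highest in SM sheep 128 among SM and in XW5 among STH sheep, as were CEP290 and NIN.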

How the data were processed

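One library of skin RNA was read from both ends for every ewe. Mapping to Oar_v4.0 and counting were done by the authors in CLC Genomics Workbench. The deposited total count of a gene is a whole number without normalization. The deposited RPKM is this count per exon length and per fragments of the library, more than those counted in genes, and it recovered whole exon lengths for 12617 genes to within 4.0e-05 bases. The TPM and a score that the authors call CPM were deposited too and not used.

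Genes that reached 10 counts in 3 or more sheep were tested by edgeR 4.0.16 in R 4.3.3 (TMM, quasi-likelihood test, Benjamini-Hochberg adjustment), with breed as the only term. Per-sheep values are TMM-normalized CPM. The standard error is the log2 fold change divided by the square root of F. A gene passed at an adjusted p under 0.05 and a change over 1.5-fold. The members and lists were chosen with earlier results of these data known, so no set was tested. Described one by one were 18 core genes and, within each role, the gene with the lowest p in each direction, as well as those with the highest and lowest fold change. Of the other lists the genes with the lowest p in each direction were named, and further genes were named after their values had been seen. Alternatives were DESeq2 1.42.0, limma 3.58.1, edgeR's likelihood ratio test, other filters and normalizations, library shares as covariates, removed length trends (loess span 0.5), log2(RPKM + 0.1) and log2(RPKM + 1), and each sheep left out. The counted share as a covariate was added after seeing the data. All tests were tried on simulated counts. The values of 1 of the 45 genes are not reported here one by one or drawn, although the counts and medians include it. Chromosome coordinates are those of the files. The sheep labels pair no SM with an STH sheep.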

Additional observations from a re-analysis of the deposited data

How the results depend on the processing

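Over 20 alternatives the median log2 SM/STH ratio of the 45 genes ranged from -0.72 to -0.28. Of the 45, 6 passed as lower in SM sheep with DESeq2, 2 with the likelihood ratio test and 0 to 16 when 1 sheep was left out, the highest without SM sheep 128. Leaving out 1 sheep gave 6 to 28 genes lower with an unadjusted p under 0.05 and 14 to 32 with breeds apart as lower (22 with either share as covariate). The shares of all tested genes are not given for these counts, and breeds with 1 sheep fewer come apart more easily. The slope on a library share was fitted to the same sheep and then taken out, which narrows the spread within a breed. Removing the exon length trend gave 2 genes higher with an unadjusted p under 0.05. Breeds were apart as higher in 2 genes with either RPKM pseudocount or either share, 4 and 3 without the exon length or span trend, 1 with upper quartile normalization and 0 to 2 without 1 sheep. These counts too stand without the shares of all tested genes.

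Of all tested genes, those that passed as lower and higher were 283 and 156 with DESeq2, 219 and 133 with the likelihood ratio test, 9 and 2 with log2(RPKM + 0.1), 6 and 2 without the exon length trend, 5 and 2 without the span trend, 1 and 1 with a filter of 1 count, and 2 lower with the newer dispersion estimate. Without 1 sheep they were 0 to 972 and 0 to 203. Of the further centrosome genes, 9 to 22 were lower and 0 to 1 higher with an unadjusted p under 0.05 when 1 sheep was left out. Higher were 1 with DESeq2, either RPKM pseudocount, the filter of 1 count or no span trend, and 2 without the exon length trend or with upper quartile normalization. For the further genes without 1 sheep, the share of all tested genes is not given.

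The median of the pericentriolar genes was -0.15 without the exon length trend and -0.54 to -0.15 without 1 sheep. That of the satellites was -0.15 with log2(RPKM + 1), -0.11 with the counted and -0.099 with the intronic share, -0.12 without the exon length and -0.11 without the span trend, and -0.44 to -0.11 without 1 sheep. That of the linker was 0.19 without the exon length trend. Among the genes named, signs turned for PCNT (-0.0016 with the intronic share, -0.00068 with the counted share, -0.0091 to 0.065 without 1 sheep, the lowest without SM sheep 30126), CEP250 (-0.040 to 0.090 without 1 sheep, the lowest without SM sheep 128) and CEP68 (0.016 without the exon length trend). They also turned for CEP128 (0.16 without the exon length and 0.21 without the span trend, -0.11 to 0.0022 without 1 sheep), CEP112 (0.076 and 0.052 without these trends) and CEP164 (0.14 without either trend, 0.0083 with log2(RPKM + 0.1), 0.0038 with log2(RPKM + 1), 0.037 with the counted and 0.048 with the intronic share, -0.23 to 0.081 without 1 sheep). Of 780 values for 39 single genes, 732 kept direction and side of the thresholds. The causes were not tested. No paired analysis was possible because the labels give no number that SM and STH sheep share.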
